A study of Mus musculus with 6 samples.

Results

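The fibroblast growth factor (FGF) genes of the mouse embryonic heart ventricle were examined, namely the ligands, their receptors and the feedback targets that FGF signalling is known to switch on. The members were chosen by name from the deposited table, as every gene called Fgf, Fgfr, Spry or Spred with a number, together with Dusp6, Etv4, Etv5 and Fgfrl1. This gave 37 of the 23284 genes in the table, namely 18 ligand genes, 4 genes of the intracellular Fgf11 to Fgf14 type, 5 receptor genes and 10 feedback targets. RNA-seq was made from heart ventricles at E9.5 of C57BL/6 embryos, 3 from WT ES cells and 3 from Tbx5ua knockdown (KD) ES cells. The labels give the KD genotype as Tbx5ua -/- and the strain as C57BL/6. The paper describes the edited ES cells as derived from C57BL/6 J. Tbx5ua is a long non-coding RNA that is transcribed divergently from Tbx5, a transcription factor gene of the heart and forelimb. In KD cells both of its alleles carry inserted polyadenylation signals that stop its transcription early, while the start of transcription is left in place. All embryos of both groups were made by tetraploid complementation, so that the embryos themselves are fully derived from ES cells. The KD cells are clonal, and the sources used here do not say which clone or how many clones gave the RNA-seq embryos. The ventricle was taken whole, so the values sum over all of its cell types.

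FGF ligands bind receptor tyrosine kinases together with heparan sulfate and, through Ras, start a chain of kinases that ends in ERK. In the embryonic heart, FGFs of the second heart field and pharynx support the growth of the outflow tract and right ventricle, and FGFs of the epicardium and endocardium drive the division of ventricular cardiomyocytes. ERK activity raises the transcription factors Etv4 and Etv5 and the inhibitors Dusp6, Sprouty and Spred, so these are often read as markers of FGF activity, although other receptor tyrosine kinases also act on them.

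The authors' table gives a single value in fpkm (fragments mapped to a gene, scaled by transcript length and by all mapped fragments of the library) for the WT group and a single value for the KD group. It holds no value for a single embryo, so no SD can be given, no test between the groups was made, and whether the embryos of the groups overlap cannot be said. The read depth of the libraries is not given in the sources used here. Differences are given as log2((KD + 0.1)/(WT + 0.1)), which understates the change of low genes, and a gene is called higher or lower in KD when it is past a fold of 1.5 on that scale and the mean of its group values is at least 1 fpkm. The fold describes these pooled values and is no test. Of 11366 genes with such a mean, 3.79% were higher and 2.68% lower, 6.48% in either direction, and their median log2 difference was 0.0041.

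Of the 37 FGF genes, 16 had a mean of at least 1 fpkm, 16 were lower but above 0 in a group, and 5 were listed at 0 in both groups. Among the 16 genes that passed the filter, 1 was higher in KD (Fgfr2), 1 was lower (Fgf8), and 14 stayed within the fold, beside 6.48% of all genes past it. With a pseudocount of 1 in place of 0.1 neither gene was past the fold, with log2 differences of 0.45 for Fgfr2 and -0.52 for Fgf8. The median log2 difference of the 16 was 0.0050, close to that of all genes. Of the 16, 10 lay within 0.2 of no difference on the log2 scale, as did 61.9% of all genes with a mean of at least 1 fpkm. The size of the difference depended on the level. All genes between 1 and 2 fpkm, the level of Fgf8 and Fgfr2, were past the fold in 21.4% of cases, against 9.42% between 2 and 5 fpkm, 3.66% between 5 and 20 fpkm and 2.29% at 20 fpkm or more. Of the 5 FGF genes between 1 and 2 fpkm 2 were past the fold, and of the 11 above that level none was.

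**Figure D1:**
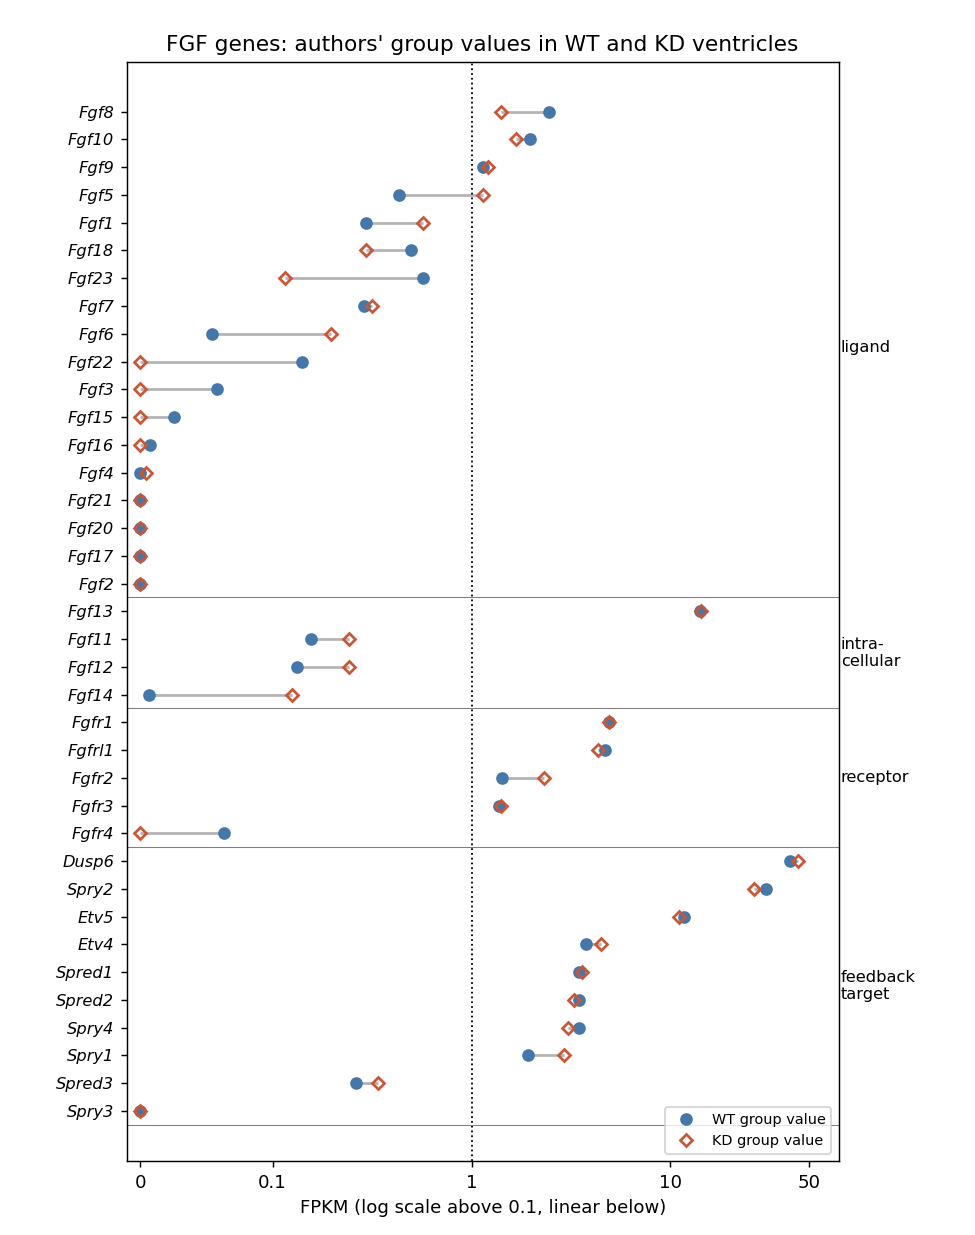
The authors' group value of each of the 37 FGF genes in WT (filled circles) and KD (open diamonds) ventricles, in fpkm on a scale that is logarithmic above 0.1 and linear below; the dotted line marks 1 fpkm. The highest values are those of the feedback targets Dusp6 and Spry2, Dusp6 at 39.7 fpkm (WT) and 43.9 fpkm (KD), while 15 of the 18 ligands had a mean below 1 fpkm.

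Promoter sequences are shown for the receptor and the target with the greatest differences toward KD (Fgfr2 and Spry1), for the highest targets (Dusp6 and Spry2), and for Fgfrl1, where a searched motif was found. Each is the 250 bases before the RefSeq start, 5′ to 3′ on the strand of the gene, from build GRCm38.p6, and capitals mark a motif match. The windows are Fgfr2 chr7:130266809-130267058 (minus strand), Spry1 chr3:37639697-37639946 (plus), Fgfrl1 chr5:108693979-108694228 (plus), Dusp6 chr10:99262981-99263230 (plus) and Spry2 chr14:105896820-105897069 (minus).
Fgfr2: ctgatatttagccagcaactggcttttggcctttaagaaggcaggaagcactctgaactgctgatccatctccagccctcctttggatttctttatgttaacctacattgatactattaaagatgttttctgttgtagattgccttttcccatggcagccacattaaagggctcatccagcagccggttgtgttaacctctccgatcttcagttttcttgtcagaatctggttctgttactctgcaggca
Spry1: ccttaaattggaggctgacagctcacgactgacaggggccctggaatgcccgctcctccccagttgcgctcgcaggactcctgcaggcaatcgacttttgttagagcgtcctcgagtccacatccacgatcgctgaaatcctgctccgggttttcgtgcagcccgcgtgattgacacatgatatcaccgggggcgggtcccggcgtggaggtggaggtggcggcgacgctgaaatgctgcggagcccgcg
Fgfrl1: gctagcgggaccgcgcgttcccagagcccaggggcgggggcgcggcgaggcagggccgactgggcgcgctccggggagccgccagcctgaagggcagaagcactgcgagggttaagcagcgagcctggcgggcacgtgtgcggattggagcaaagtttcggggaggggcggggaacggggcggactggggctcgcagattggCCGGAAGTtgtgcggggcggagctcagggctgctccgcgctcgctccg
Dusp6: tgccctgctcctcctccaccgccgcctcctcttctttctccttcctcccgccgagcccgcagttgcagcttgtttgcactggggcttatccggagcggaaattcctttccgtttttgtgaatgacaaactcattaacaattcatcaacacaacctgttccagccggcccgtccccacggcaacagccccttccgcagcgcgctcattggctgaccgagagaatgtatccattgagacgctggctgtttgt
Spry2: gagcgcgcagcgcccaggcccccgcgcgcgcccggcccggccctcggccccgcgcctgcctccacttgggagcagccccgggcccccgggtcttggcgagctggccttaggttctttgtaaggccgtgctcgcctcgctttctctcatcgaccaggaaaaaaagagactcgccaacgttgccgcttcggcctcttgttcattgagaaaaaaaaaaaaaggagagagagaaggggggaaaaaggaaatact

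The letters searched on both strands, in windows of 250 bases before to 50 after each start, were CCGGAAGT, an ETS family site of the kind Etv4 and Etv5 bind, AGGTGTGA, a T-box factor site, and TGACGTCA, the cyclic AMP response element. RefSeq windows were matched for 27 of the 37 genes. CCGGAAGT was found in the window of 1 of the 27, Fgfrl1, 48 bases before its start, and in 3.89% of all 32851 windows. The T-box letters were in 1.28% and the cyclic AMP letters in 1.79% of all windows, and in 0 windows of the FGF genes. Fgfr2 has the most AT-rich of the printed windows, with 44.0% G and C, against 56.4% in Dusp6, 62.4% in Spry1 and Spry2 and 73.6% in Fgfrl1. Absence of a match says only that these letters are not in the window.

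Among the secreted ligands, 3 of 18 reached a mean of 1 fpkm: Fgf8, Fgf10 and Fgf9. Fgf8, a ligand of the second heart field, pharynx and outflow tract that acts mainly through Fgfr1 and the c isoforms of the other receptors, had the highest WT value of any ligand, 2.45 fpkm, and 1.41 fpkm in KD. Among the 16 members that passed the filter it was the only one lower in KD past the fold, 1.74-fold lower as a plain ratio, with a log2 difference of -0.75. The gene lies at chr19:45736798-45742884 (GRCm38) and shares this locus with no other gene of the table. At its level 9.04% of all genes were lower past the fold, and the middle 95% of genes ran from -0.93 to 1.11, a range that includes Fgf8. In a whole ventricle, fewer cells that express Fgf8 and less Fgf8 RNA in each cell cannot be told apart.

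Fgf10, the other second heart field ligand that passed the filter, which acts through the b isoform of Fgfr2, had 1.97 fpkm (WT) and 1.67 fpkm (KD), a log2 difference of -0.22. Fgf9, which epicardium and endocardium make and which stimulates cardiomyocyte division through Fgfr1 and Fgfr2, had 1.14 fpkm in WT against 1.21 fpkm in KD, a log2 difference of 0.08. Fgf10 was lower and Fgf9 slightly higher in KD, both within the fold and within the middle 50% of genes at their level. The markers of second heart field and pharyngeal mesoderm were low in both groups. None of the 5 listed genes passed the filter, their sum was 1.04 fpkm (WT) and 1.17 fpkm (KD), and Tbx1 was listed at 0. Isl1 had 0.559 fpkm (WT) and 0.361 fpkm (KD), while Osr1 went the other way, with 0.233 fpkm (WT) and 0.673 fpkm (KD). Of the 7 cushion and outflow markers 1 was lower in KD past the fold, Msx1, with 5.60 and 2.92 fpkm in WT and KD, beside 2.68% of all genes. In the same list 2 were higher, beside 3.79%, namely Sox9 with 8.95 and 16.0 fpkm and Twist1 with 1.98 and 3.23 fpkm. The sum of the list was 35.3 fpkm in WT against 38.9 fpkm in KD. By direction alone, 3 of the 7 were higher and 4 lower in KD, with a median log2 difference of -0.06. Msx2, lower but within the fold, had 8.98 and 6.26 fpkm. The part of these cells in the Fgf8 difference was not tested.

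The remaining ligands had means below 1 fpkm. Fgf5 came closest to the filter, with a WT value of 0.431 fpkm and a KD value of 1.14 fpkm. Fgf18, of the Fgf8 subfamily, had 0.494 fpkm (WT) and 0.295 fpkm (KD), so the subfamily sum of Fgf8, Fgf17 and Fgf18 was 2.95 fpkm in WT against 1.71 fpkm in KD. Fgf1 had 0.295 and 0.571 fpkm, and Fgf23, a hormone that bone makes in the adult, had 0.573 and 0.116 fpkm in WT and KD. Fgf7 had 0.289 and 0.316 fpkm, and Fgf6 had 0.0539 and 0.196 fpkm. The differences ran in either direction, and no fold is given for genes at this level.

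Fgf3, Fgf15, Fgf16 and Fgf22 were above 0 in WT alone, at 0.140 fpkm or less, and Fgf4 in KD alone, at 0.0046 fpkm. Fgf22 shares its locus in the table with 45 other genes, so its value is less certain. Fgf2, Fgf17, Fgf20 and Fgf21 were listed at 0 in both groups. Thus Fgf16 and Fgf20, which belong with Fgf9 to the subfamily of epicardial and endocardial mitogens, added almost nothing to Fgf9 in either group. The value of Fgf2, a widely made growth factor, carries a limit from the annotation. The table ends the gene at chr3:37348653-37404830, before Nudt6 on the opposite strand at chr3:37404984-37419590, whereas GENCODE M21 runs Fgf2 on to position 37410108, inside Nudt6. Nudt6 had a WT value of 5.54 fpkm and a KD value of 9.37 fpkm, and with libraries that do not mark the strand, reads from the end of Fgf2 and from Nudt6 cannot be told apart.

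Fgf11 to Fgf14 are kept inside the cell, where they bind voltage-gated sodium channels and do not act through FGF receptors. Fgf13, on the X chromosome at chrX:59062150-59134436, was the highest Fgf gene of the ventricle, with 14.1 fpkm (WT) and 14.2 fpkm (KD). Its log2 difference of 0.01 was among the smallest of the members. GENCODE extends the gene on the minus strand to a farther start at position 59568071, outside the table's locus, which also holds Mir504, listed at 0. Fgf11 had 0.155 and 0.243 fpkm, Fgf12 had 0.133 and 0.242 fpkm, and Fgf14 had 0.0070 and 0.125 fpkm in WT and KD. Fgf13 made up nearly all of this class in both groups, whose sum was 14.4 fpkm in WT against 14.8 fpkm in KD.

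Of the receptors, Fgfr1 led in both groups and Fgfr2 was the member that differed. Fgfr1, the main FGF receptor of embryonic mesoderm and myocardium, had a WT value of 4.92 fpkm and a KD value of 4.92 fpkm. Fgfr2, whose b and c isoforms receive different ligands and which with Fgfr1 carries the Fgf9 signal in the myocardium, had 1.43 fpkm (WT) and 2.30 fpkm (KD). It was 1.62-fold higher as a plain ratio, with a log2 difference of 0.66, at chr7:130162451-130266808. At its level 12.4% of all genes were higher past the fold, and the difference lay inside the middle 95% of those genes. The table gives values by gene and not by isoform, so the b and c forms cannot be told apart. Fgfr3 had 1.37 fpkm in WT against 1.41 fpkm in KD, and Fgfr4 had 0.063 fpkm in WT and was listed at 0 in KD.

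The share of Fgfr1 in the summed fpkm of the 4 kinase receptors was 63.2% in WT and 57.0% in KD, that of Fgfr2 was 18.3% and 26.7%, and that of Fgfr3 was 17.6% and 16.3%. Thus the order of Fgfr1, Fgfr2 and Fgfr3 was the same in both groups, with Fgfr2 and Fgfr3 close together in WT and apart in KD. The sum itself was 7.78 fpkm (WT) and 8.64 fpkm (KD). Fgfrl1, a receptor that binds FGFs and heparin but lacks the kinase domain, stood near Fgfr1 in level, with 4.71 fpkm (WT) and 4.31 fpkm (KD) and a log2 difference of -0.13. GENCODE exons of another gene overlap those of Fgfr1 and Fgfr3 on the opposite strand, as they do for Fgf10 and Spry1. On the same strand, an annotated Fgfr2 transcript extends into Ctbp2. That transcript runs Fgfr2 on to position 133123350 in GENCODE. The table's locus of Fgfr2 ends at position 130266808 and is shared with no other gene of the table.

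**Figure D2:**
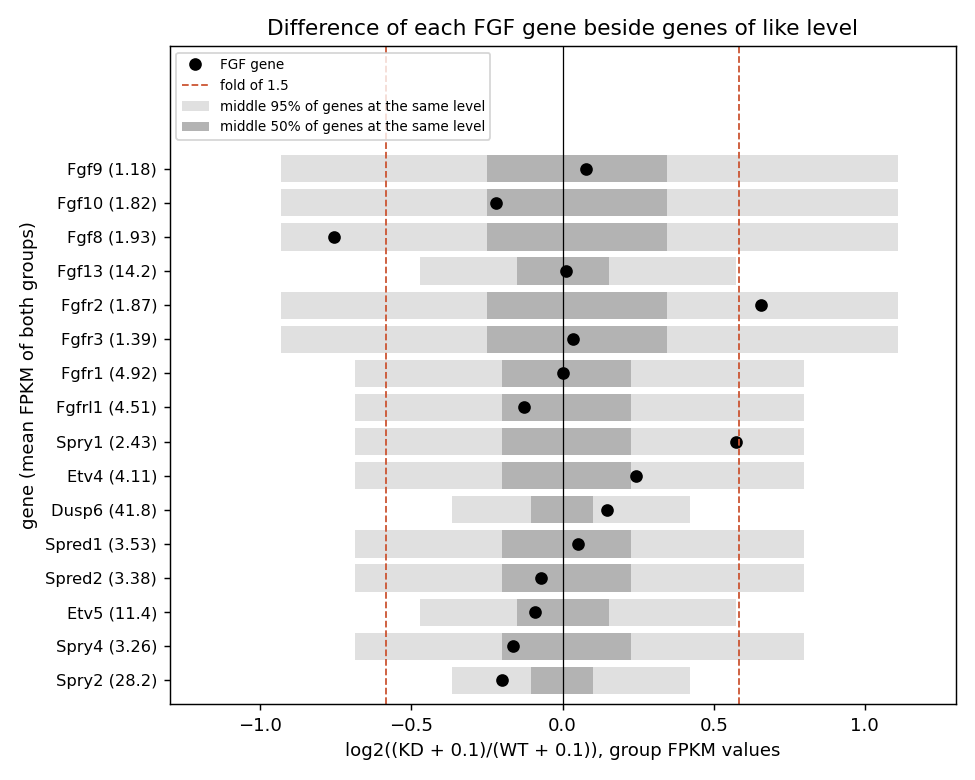
The log2 difference of KD over WT group values for the 16 FGF genes with a mean of at least 1 fpkm (black points; mean fpkm in parentheses), on bars that span the middle 95% (light) and middle 50% (dark) of all genes in the same class of level, 1 to 2, 2 to 5, 5 to 20 or at least 20 fpkm. Fgf8 at -0.75 and Fgfr2 at 0.66 lie past the fold of 1.5 (dashed lines) and inside the light bars.

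The feedback targets had the highest sum of the 4 classes, and none of the 8 that passed the filter was past the fold, beside 6.48% of all genes, a share at which a count of 0 among so few genes is no result about them. Their sum was 97.9 fpkm in WT against 98.9 fpkm in KD. Dusp6, the phosphatase that removes phosphate from ERK, was the highest member, with a WT value of 39.7 fpkm and a KD value of 43.9 fpkm, a log2 difference of 0.15. Spry2, an inhibitor that acts between the receptor and Ras and Raf, was the next, with 30.2 fpkm (WT) and 26.2 fpkm (KD), a log2 difference of -0.20. The difference ran up for one and down for the other, each outside the middle 50% of genes of at least 20 fpkm, which spans -0.10 to 0.10, and inside the middle 95%. Dusp6 lies at chr10:99263231-99267489 and Spry2 at chr14:105891947-105896819. Together they held 71.3% of the targets' sum in WT and 71.0% in KD.

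Etv5 and Etv4, the ETS transcription factors that carry FGF signals to their targets, were moderate in level. Etv5 had 11.7 fpkm in WT against 11.0 fpkm in KD, a log2 difference of -0.09. Etv4 had a WT value of 3.76 fpkm and a KD value of 4.47 fpkm, a log2 difference of 0.24. Their sum was 15.5 fpkm in each group, since the lower value of one was matched by the higher value of the other.

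Among the Sprouty genes, Spry1 had the greatest difference of the targets, with 1.93 fpkm (WT) and 2.93 fpkm (KD). Its log2 difference of 0.57 stood just inside the fold of 1.5 (0.58), and as a plain ratio, without the pseudocount, it was 1.51-fold higher and past it. Spry4 had 3.46 fpkm in WT against 3.07 fpkm in KD, a log2 difference of -0.16, and Spry3 was listed at 0 in both groups. Spry1 was thus higher while Spry2 and Spry4 were lower, and the sum of the family was 35.5 fpkm (WT) and 32.2 fpkm (KD). Spry1 at chr3:37639950-37644599 overlaps Gm42922 on the opposite strand in GENCODE, which the libraries cannot separate.

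The Spred genes, whose proteins hold back the activation of Raf, had small differences between the groups. Spred1 had 3.47 fpkm (WT) and 3.60 fpkm (KD), a log2 difference of 0.05. Spred2 had 3.47 fpkm in WT against 3.29 fpkm in KD, a log2 difference of -0.07. Spred3 was low, with 0.263 and 0.340 fpkm. With no value for single embryos, these small differences cannot be set against the spread between embryos, and they do not show that the groups are the same.

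**Figure D3:**
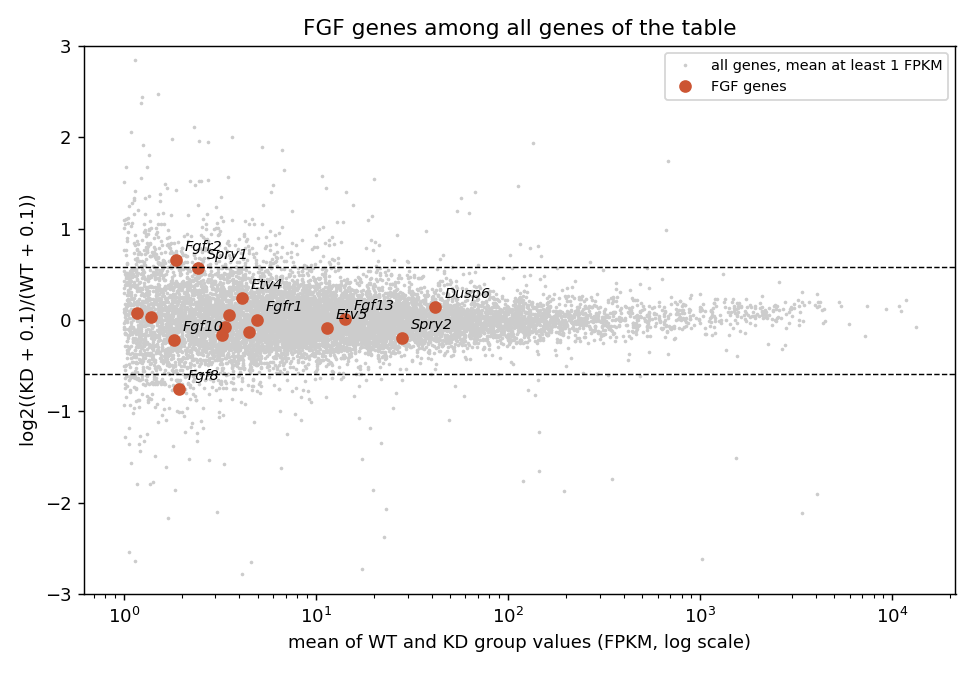
The log2 difference of KD over WT against the mean of the group values (fpkm, log axis) for all 11366 genes with a mean of at least 1 fpkm (grey) and the 16 FGF genes among them (orange); dashed lines mark the fold of 1.5, and 63 genes lie beyond the plotted range of 3 in either direction. The grey points widen toward low levels, where Fgf8, Fgfr2 and Spry1 are found, and Dusp6 and Spry2 lie in the narrow part.

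The rest of the pathway was read from lists of 84 genes, of which 83 were in the table and 71 had a mean of at least 1 fpkm. Of these 71, 5 were higher in KD past the fold, beside 3.79% of all genes, and 0 were lower, beside 2.68%, a count that the pseudocount sets for Hs6st2, described with its list. Of the 5 coreceptors and binding partners that passed the filter 2 were higher and 0 were lower, beside 3.79% and 2.68% of all genes. The 2 higher genes had means between 2 and 5 fpkm, where 9.42% of all genes were past the fold in either direction. Fgfbp3, a carrier that frees FGFs from heparan sulfate, had a WT value of 1.39 fpkm and a KD value of 2.72 fpkm, and Flrt2, of a family of membrane proteins that bind FGF receptors, had 2.24 fpkm (WT) and 4.03 fpkm (KD). Cdh2, the highest of this list, had 40.1 and 39.9 fpkm. The klotho coreceptors that endocrine FGFs need were near 0, with 0.0273 fpkm as the higher value of Klb and 0.0039 fpkm as that of Kl. Il17rd, a membrane inhibitor of FGF signalling, had 0.301 and 0.280 fpkm.

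Of 20 heparan sulfate genes that passed the filter 1 was higher and 0 were lower, beside 3.79% and 2.68% of all genes. Hs6st2, a sulfotransferase of heparan sulfate, had 15.9 and 10.6 fpkm in WT and KD. Its log2 difference of -0.58 stood just inside the fold, and without the pseudocount its plain KD to WT ratio of 0.666 was past it. Sdc4, a cell surface core protein, had 9.32 fpkm in WT against 14.3 fpkm in KD, a log2 difference of 0.61. Gpc3, the highest of the list, had 84.8 and 102 fpkm. Between receptor and ERK, 15 adaptor and Ras genes and 12 Raf, MEK and ERK genes passed the filter. None of them was past the fold, beside 6.48% of all genes in either direction. At that share a count of 0 among so few genes is no result about them. The Raf, MEK and ERK genes ran from -0.19 to 0.29 with a median of -0.0015. Map2k1 and Map2k2, the kinases that activate ERK, had 87.9 and 88.9 fpkm in WT and 87.5 and 92.2 fpkm in KD.

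Of 19 other phosphatases and ERK responsive genes 2 were higher and 0 were lower, beside 3.79% and 2.68% of all genes. Dusp5, a nuclear phosphatase of ERK, had a WT value of 3.17 fpkm and a KD value of 5.64 fpkm, and Egr1, an immediate early gene, had 8.41 fpkm (WT) and 15.9 fpkm (KD). The median log2 difference of this list was 0.16, against -0.01 for the 8 feedback targets above. Dusp4 and Dusp7, phosphatases of the same family, had log2 differences of -0.14 and 0.05, and Etv1, the relative of Etv4 and Etv5, of 0.12.

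**Figure D4:**
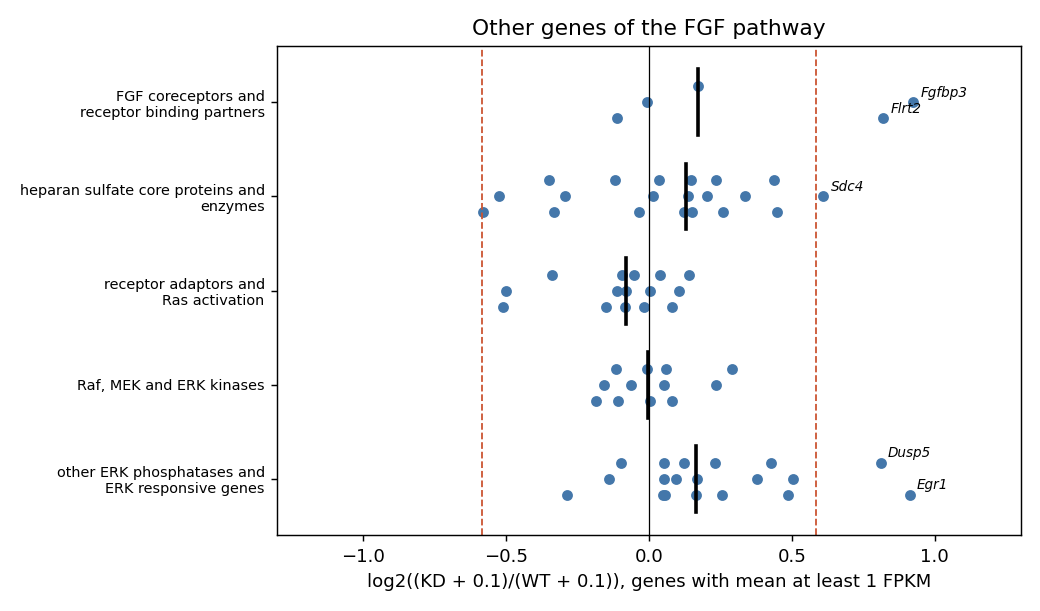
The log2 difference of KD over WT group values for each of the 71 further FGF pathway genes with a mean of at least 1 fpkm, by list; black bars mark the list medians and dashed lines the fold of 1.5. The 5 named genes lie past the fold on the side of KD, and the adaptor and kinase lists lie within it.

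Among markers with a mean of at least 1 fpkm, the epicardial and megakaryocyte lists differed most by median between the groups. The tissue showed ventricular markers in both, with Myl2 at 10924 fpkm in WT against 12702 fpkm in KD, and the sum of the 6 ventricular markers was 17999.9 and 20638 fpkm. Of the 6 epicardial markers that passed the filter 5 were higher in KD past the fold, beside 3.79% of all genes, and 12.4% of those between 1 and 2 fpkm. Their sum over 7 genes was 47.3 fpkm (WT) and 96.8 fpkm (KD), none at 0. Of 4 megakaryocyte markers 3 were higher past the fold, beside the same 3.79%, with sums of 43.9 and 100.2 fpkm. Of 2 atrial markers that passed the filter 1 was higher, Nr2f2, with 2.01 and 4.15 fpkm, beside 3.79% of all genes. Its mean lay between 2 and 5 fpkm, where 9.42% of all genes were past the fold in either direction. Below the filter, Nr2f1 had 0.552 and 1.07 fpkm and Vsnl1 had 0.555 and 1.14 fpkm, while Sln was listed at 0. The atrial list summed to 9.70 and 13.3 fpkm, with 4 genes higher by direction alone and 0 lower. None of 8 endocardial markers was past the fold, beside 6.48% of all genes in either direction, with sums of 155 and 170 fpkm. Neural crest and foregut endoderm markers were near 0, Foxd3 and Foxa1 listed at 0. Their sums were 1.72 and 0.512 fpkm in WT and 0.952 and 0.712 fpkm in KD. Surface ectoderm markers summed to 0.0169 fpkm (WT) and 0.203 fpkm (KD). Hepatic and yolk sac markers summed to 0.607 fpkm (WT) and 1.37 fpkm (KD). No gene of these lists passed the filter. The 6 general cardiomyocyte markers and the 6 erythroid markers in the table held 0 genes past the fold, beside the same 6.48%. At that share a count of 0 in so short a list is no result about it, nor about the endocardial list. The part of epicardial, megakaryocyte or atrial cells in the higher values of Fgfr2, Spry1, Fgfbp3, Flrt2, Sdc4, Dusp5 and Egr1 was not tested.

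**Figure D5:**
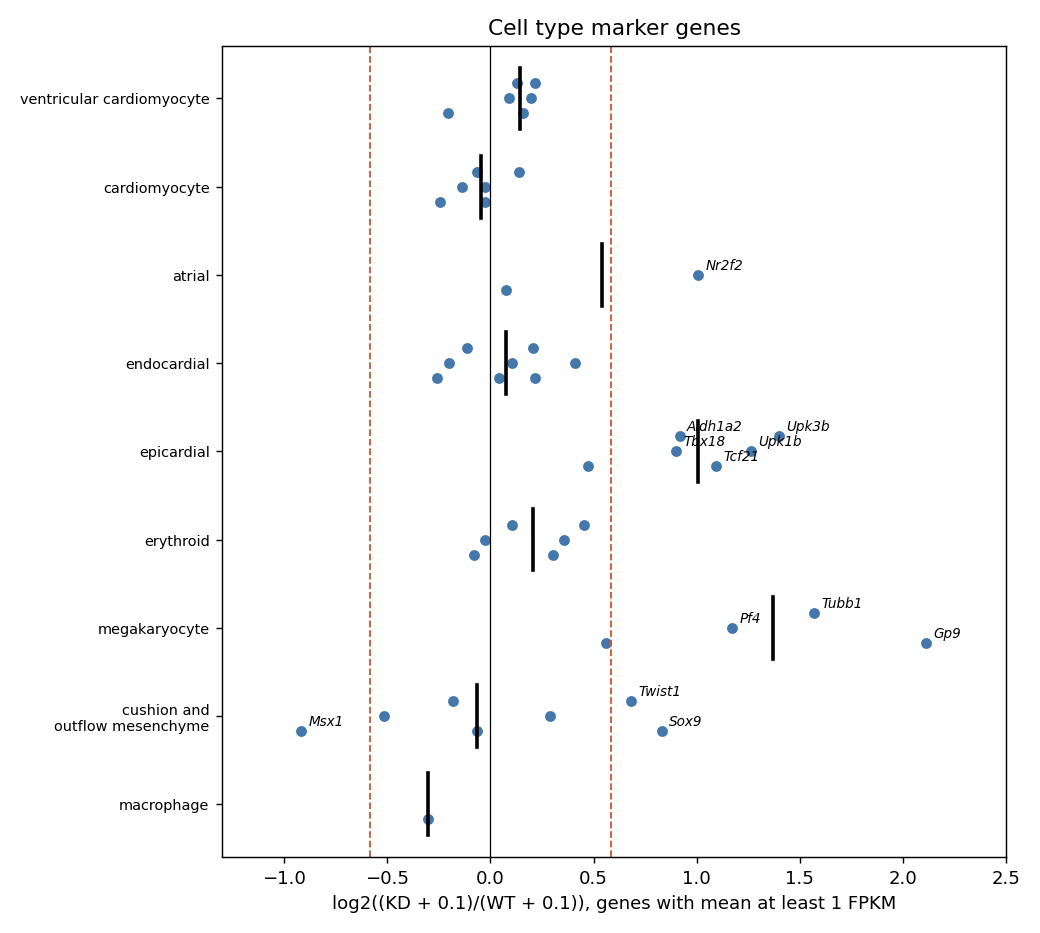
The log2 difference of KD over WT group values for each marker gene with a mean of at least 1 fpkm, by cell type list; black bars mark the list medians and dashed lines the fold of 1.5. The epicardial and megakaryocyte medians of 1.01 and 1.37 lie past the fold, and the ventricular and endocardial medians of 0.14 and 0.07 lie near 0.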

How the data were processed

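RNA-seq was performed on heart ventricles from 3 WT and 3 KD samples at E9.5 with Smart-Seq2 libraries, which do not mark the strand. The submitters' processing notes name TopHat, Bowtie2 and Cuffdiff with build mm10, without versions. The authors deposited a Cuffdiff table with 1 FPKM value per gene for each group, the KD group under the name KO. Its fold change, test statistic, p-value and q-value columns are the authors' own comparison and were not used. There were 0 unused columns of single samples. Library depth is not given in the sources used here, and no interval was computed.

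Samples were grouped by title. The 2 genes that Cuffdiff marked as having too many reads were left out of all counts. Table starts were given with 1 added, which matched a GENCODE M21 transcript boundary for 19 of the 37 members, against 2 without it. Log2 differences used a pseudocount of 0.1, a filter of a mean of at least 1 FPKM and a fold of 1.5. Every member that passed this filter was named. Other members were named by role, pathway genes where past the fold, highest in their list or of a named role, and markers as defining genes; Nudt6 and the pathway genes outside that rule were named after their values were seen. The members and lists were chosen with earlier results of these data known, and the classes of level after the values were seen. The scripts were tested on simulated data. Other pseudocounts, filters, folds and scalings were tried. Python 3.11.15, NumPy 2.4.6, pandas 2.3.3 and Matplotlib 3.10.9 were used.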

Additional observations from a re-analysis of the deposited data

How the results depend on the processing

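The number of FGF genes higher in KD was 1 and the number lower was 1. With no pseudocount 2 were higher, Spry1 joining Fgfr2, and so at the lower fold tried. With a filter of 0.5 fpkm 2 were higher, Fgf5 joining Fgfr2. With a pseudocount of 1, a filter of 5 fpkm or a fold of 2, 0 were higher and 0 were lower. With no filter 5 were higher and 6 lower, among them genes listed at 0 in a group. The percent of all genes past the fold was 6.48 and became 3.41 with a pseudocount of 1, 2.97 with a filter of 5 fpkm, 16.2 with no filter, 20.1 at the lower fold and 2.01 at a fold of 2, by construction. Both rescalings gave 1 higher and 1 lower. Leaving out members that share a locus gave the same counts. It took only Fgf13, within the fold, from the members that passed the filter, so it could not change them. The median of the members ran from -0.04 to 0.02. The log2 differences of Fgf8 and Fgfr2 became -0.52 and 0.45 with a pseudocount of 1. With the columns rescaled to the same sum they were -0.78 and 0.63. Their signs stayed the same, which is no check, since a pseudocount cannot change a sign and the rescalings were small. No paired analysis was possible because each group has a single value in the table used here, and for the same reason neither leaving out a replicate nor a replicate block was run. Without a known depth, ratios of genes below 1 fpkm carry an unknown counting error.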
